A study of Mus musculus with 16 samples.

Results

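Ago2-bound RNA near the 3′ ends of protein-coding genes was examined in activated mouse splenic B cells. A region belonged here when it overlapped exactly 1 gene span on its own strand, that gene was protein-coding and not mitochondrial, and the middle of the region lay within 3000 nt upstream of the gene's annotated 3′ end. This held for 122265 of the 962700 Ago2 regions in the deposited output (12.7%), and these regions lay in 8905 genes. The cells came from spleens of C57B6L/J mice of 2 genotypes: KO mice, without miR-221 and miR-222, and Flox mice, in which the locus is flanked by loxP sites. The sources used here name neither a Cre driver nor the ages. All cells of both genotypes had been cultured for 4 days with anti-CD40 at 500 ng/ml together with IL-4 at 25 ng/ml and IL-21 at 10 ng/ml, which stimulate B cells to divide and switch antibody class. Ago2 HITS-CLIP, which sequences the RNA pieces that remain crosslinked to Ago2 after immunoprecipitation, was done on 4 KO and 4 Flox samples, and RNA-seq on 4 KO and 4 Flox samples. The CLIP output pools libraries and does not say which of its conditions is KO. For this reason the tag numbers of the single conditions were not used, no CLIP difference was given a direction by genotype, and no CLIP value carries an error between mice.

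Ago2 holds a miRNA and is guided by it to messenger RNAs, usually through pairing between the miRNA's seed and a short complementary stretch in the 3′ untranslated region. Bound messages are translated less and decay faster, because Ago proteins recruit TNRC6 proteins, which in turn bring in deadenylases. In B cells, miRNAs tune survival, division and class switching this way. Untranslated regions, exons and introns could not be told apart with the annotation used here, so distance from the gene's 3′ end takes their place.

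Of the miRNAs that the genotypes and the gene lists are about, 7 are shown as mature sequences 5′ to 3′ with the seed, bases 2 to 8, in capitals (RefSeq, GRCm38.p6).
miR-221-3p: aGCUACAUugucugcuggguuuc
miR-222-3p: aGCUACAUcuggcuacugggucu
miR-155-5p: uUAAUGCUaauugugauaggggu
let-7a-5p: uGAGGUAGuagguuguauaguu
miR-17-5p: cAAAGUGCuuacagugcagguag
miR-181a-5p: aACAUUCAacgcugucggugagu
miR-125b-5p: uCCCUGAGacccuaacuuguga
The deleted miR-221-3p (chrX:19146307-19146329, minus strand) and miR-222-3p (chrX:19146901-19146923, minus strand) share 1 seed, whose perfect complement in a target reads AUGUAGC. The other 5 miRNAs, abundant in lymphocytes or known for roles there, each have a seed of their own. Which miRNA guided Ago2 to a given region was not tested, since no genome sequence was used.

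RNA-seq depth was 22947689 to 39236132 reads in KO libraries and 25421025 to 39616596 in Flox libraries. Reads on the annotated Mir221 gene numbered 0 in every KO library and 0, 0, 3 and 1 in Flox libraries 1 to 4, too few to check the genotypes. The B cell markers Ms4a1, Cd79a, Cd79b, Pax5 and Cd22 summed to 69052 to 79560 normalized counts in KO libraries and 64391 to 71162 in Flox libraries. T cell markers summed to 5.2 to 30.8 in KO and 9.3 to 25.8 in Flox libraries, and myeloid markers to 80.4 to 120 in KO and 55.7 to 104 in Flox libraries. The 4 NK cell markers summed to 0 to 11.6 in KO and 0.8 to 15.1 in Flox libraries, and the 5 erythroid markers to 6.9 to 48.5 in KO and 35.3 to 67.1 in Flox libraries; Ncr1 of the first list and Hba-a1, Hbb-bs and Alas2 of the second were listed at 0 in all 8 libraries. Plasma cell markers were also high, at 30350 to 43111 in KO and 32133 to 43580 in Flox libraries.

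Ago2 regions crowded toward the 3′ ends of coding genes. In short genes the window covers much or all of the gene, so the profile was drawn for the 7915 coding genes of at least 20000 nt that had regions. Their last 3000 nt made up 2.77% of their span and held 10.8% of their regions (75913 of 703792) and 10.4% of the region length. Their first 3000 nt held 4.61% of the regions and 4.57% of the length. Ago2 regions covered 33.9% of the last 500 nt, 13.8% of the stretch from 2500 to 3000 nt and 6.65% of that from 9500 to 10000 nt. From the 5′ end the covered share was 7.24% in the first 500 nt, 11.3% from 1000 to 1500 nt and 9.27% from 9500 to 10000 nt. Each end held more regions than its share of the span, the 3′ end by far the more.

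Within the window regions became fewer with distance while their median width stayed the same. The last 250 nt held 16.1% of the regions (19734) and the stretch from 2750 to 3000 nt held 4.71% (5763), and the median width was 50 nt in both. The median distance was 1048 nt (quartiles 433 and 1865 nt), and 48.3% of the regions lay within 1000 nt. Widths had quartiles of 30 and 90 nt and reached 1035 nt, against a median of 55 nt and quartiles of 35 and 95 nt elsewhere in single coding genes. Across the limit of the rule the values ran on without a step. From 2750 to 3000 nt there were 5763 regions, of which 42.7% were in a differential state, as explained below, and from 3000 to 3250 nt there were 5357, of which 43.1% were.

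How much of a gene's 3′ end Ago2 covered went with how much RNA the gene made. Of coding genes listed at 0 RNA-seq counts in every library, 3.24% had such a region (179 of 5533). The share was 19.96% at mean normalized counts of 10 to 100, 68.8% at 100 to 1000, 92.0% at 1000 to 10000 and 97.3% at 10000 or more (429 of 441). The median length covered, in genes with regions, was 185 nt at 10 to 100 and 1821 nt at 10000 or more. Of the 12 highly expressed genes without such a region, Syngr2, Sfpq, Irf8 and Cox4i1 had Ago2 regions that overlapped more than 1 gene, which the rule leaves out. For the other 8, among them Cd52, Hspa8, Socs2 and Mdm4, no such shared region was counted. A region in the windows of several coding genes was credited to only 1 of them, so absence of Ago2 from these 8 genes is not shown. Across the 8417 genes with regions that were tested in RNA-seq, covered length and mean RNA level had a Spearman rho of 0.48, a description over genes that share the same libraries.

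A gene had a median of 10 regions near its 3′ end (quartiles 4 and 21, highest 59), which covered a median of 24.2% of the window (quartiles 9.33% and 50.3%). In 512 of the 8905 genes at least 90% of the window was covered. Neighbouring regions join into clusters, unbroken runs of Ago2 signal, and 34126 clusters held the regions near 3′ ends, with a median of 2 regions and a highest number of 54.

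Each region carries a hidden state from the deposited comparison of the 2 CLIP conditions: positive, negative or no difference. Positive and negative mark opposite directions between the conditions. The authors' difference value per 5-nt bin gives the size and is averaged here over the region. The authors' summary adds a score, which was 0 in every region without a differential state and above 0 in every other; the scale of neither value is given in the sources used here. Near 3′ ends 44.4% of the regions were in a differential state (54232, 95% exact binomial interval 44.1 to 44.6), against 40.6% elsewhere in single coding genes and 42.4% of all regions. The positive state held 15.3% (15.1 to 15.5), against 8.72% elsewhere in single coding genes and 9.28% of all regions. The negative state held 29.0% (28.8 to 29.3), against 31.8% and 33.1%. An absolute mean difference of at least 0.25 was met by 21.6%, against 16.9% of all regions. Regions outside same-strand genes had higher shares, with 50.2% in a differential state and 24.4% at that difference, but only 6.39% positive. Intervals cover counting error only, and regions of 1 cluster adjoin each other on 1 message.

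The positive share climbed toward the 3′ end. In the long genes it was 18.5% in the last 500 nt (interval 17.9 to 19.0), 14.9% at 2500 to 3000 nt (14.1 to 15.7) and 8.87% at 9500 to 10000 nt (7.97 to 9.84). From the 5′ end it was 5.04% in the first 500 nt, 8.78% at 2500 to 3000 nt and 8.96% at 9500 to 10000 nt. The negative share was 26.3% in the last 500 nt before the 3′ end, 28.4% at 2500 to 3000 nt and 30.5% at 9500 to 10000 nt. The 2 profiles thus had about the same positive share at 9500 to 10000 nt and parted toward the gene ends.

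**Figure D1:**
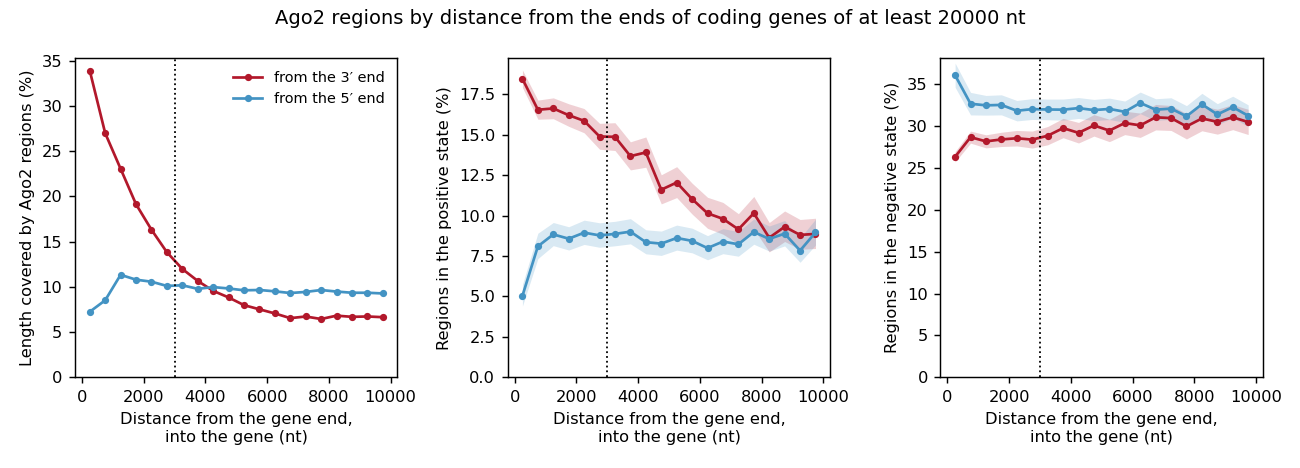
Share of length covered by Ago2 regions (left) and share of regions in the positive (middle) and negative state (right), all in %. Distance in nt runs from the 3′ end (red) or the 5′ end (blue), in steps of 500 nt. Genes are coding genes of at least 20000 nt. Bands in the middle and right panels are 95% exact binomial intervals, the left panel has none, and the dotted line marks 3000 nt. Toward the 3′ end the covered share goes up to 33.9% and the positive share to 18.5%, while both curves from the 5′ end stay at or under 11.3%.

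The share in a state differed with region width, and the positive share was higher near 3′ ends in each of the 5 width classes. A region ends where the state changes or the Ago2 signal stops, so its width is itself part of the deposited calls. Of regions of 20 to 45 nt, 23.3% were positive near 3′ ends, 15.9% near 5′ ends and 16.8% elsewhere inside coding genes. At 50 to 95 nt the positive shares were 14.4%, 5.58% and 6.27% in the same order of places, and at 100 to 195 nt 7.37%, 1.34% and 1.55%. Among the 4776 regions of at least 200 nt near 3′ ends 4.08% were positive (3.54 to 4.68), against 0.596% elsewhere inside coding genes (0.501 to 0.703). The negative share was lower near 3′ ends at 20 to 45 nt, with 41.4% against 47.8% elsewhere inside coding genes, and higher at 100 to 195 nt, with 12.5% against 10.3%. The share in either state at 20 to 45 nt was 64.7% near 3′ ends and 64.6% elsewhere inside coding genes, so among these short regions the shares of the signs differed while the share called was about equal. How many tags lay under each region was not used, and the part of depth in these shares was not tested.

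**Figure D2:**
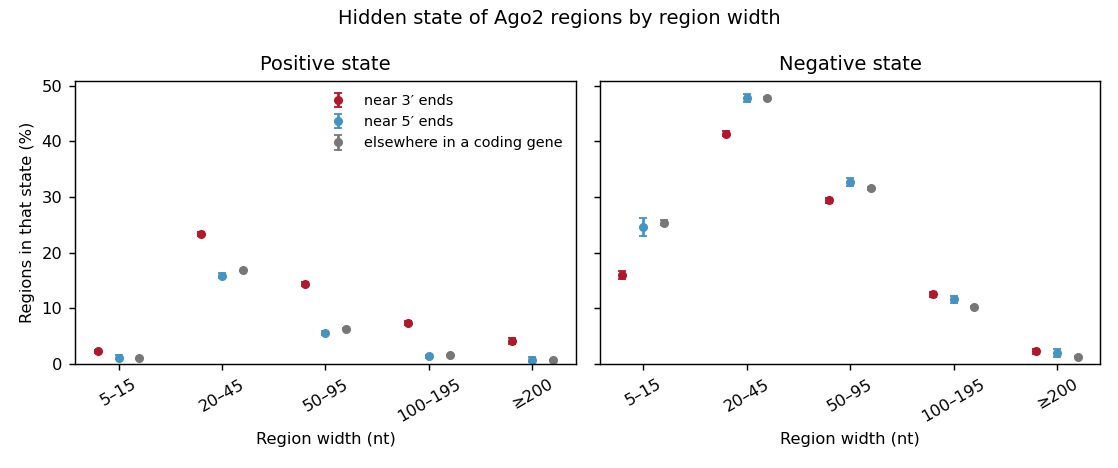
Share of regions (%) in the positive (left) and negative state (right) by region width in nt, near 3′ ends (red), within 3000 nt of 5′ ends (blue) and elsewhere in a coding gene (grey); bars are 95% exact binomial intervals, which cover counting error only. The red points lie above the others in every width class on the left, with 23.3% against 16.8% elsewhere in a coding gene at 20 to 45 nt.

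Scores near 3′ ends were also higher than elsewhere in single coding genes. Regions in a differential state had a median score of 4.5 near 3′ ends and 2.4 elsewhere in single coding genes. A score of at least 5 was reached by 20.7% of the regions near 3′ ends (25296), against 12.1% of all regions and 8.81% elsewhere in single coding genes, and a score of at least 50 by 0.667% (815), against 0.0486% (327) elsewhere in single coding genes. Regions outside same-strand genes came close, with a median of 4.4 and 20.3% at a score of at least 5. Scores of at least 50 were more frequent in single non-coding genes (1.67%) and in regions overlapping several genes (0.828%). The regions near 3′ ends made up 12.7% of all regions and held 21.8% of the summed score. Positive regions near 3′ ends had a median score of 10.2 and negative ones of 2.7, against 6.1 and 2 elsewhere in single coding genes. At a score of at least 5, 66.4% were positive near 3′ ends, against 70.0% elsewhere in single coding genes and 58.0% of all regions. At that limit the positive share was thus not higher near 3′ ends than elsewhere in single coding genes. Of the 1000 highest-scoring regions near 3′ ends 778 were positive, but of the first 100 only 47 were, and 53 were negative.

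The 10 highest scores near 3′ ends all belonged to negative regions. They lay in Lars2 (2 regions), B2m, Tagap, Elmsan1, Cdkn1b, Tagap1, Pim1, Cd69 and Serinc3, with scores of 312.5 to 616.4 and differences of -0.29 to -0.16. The first was in Lars2, the mitochondrial leucyl-tRNA synthetase, at chr9:123462125-123462189 on the plus strand, 509 nt from the end. B2m, the light chain of MHC class I, scored 468.3 at chr2:122152690-122152764, and Cd69, an early activation marker of lymphocytes, 332.4 at chr6:129267345-129267434. Tagap (435.5) and Tagap1 (398.4) are near-identical copies, so how signal was divided between them is uncertain.

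The 10 genes with the highest summed score were Lars2, Pim1, Cdkn1b, Elmsan1, Cd69, Irf4, Wasl, Cltc, Zfp36l1 and Slc38a2. Lars2 led with 1103.3 from only 4 regions that covered 14.0% of its window, 0 positive and 2 negative. Pim1, a kinase that promotes lymphocyte survival, had 957.4 from 45 regions over 97.5% of its window, 13 positive and 9 negative. Its highest score, 392 at chr17:29495420-29495539, and the next, 236.5 at chr17:29495205-29495244, were negative, and the third, 57.4 at chr17:29493810-29493859, was positive at 0.38. Lars2 thus owed its rank to 2 regions, while the other 9 leading genes had 34 to 50 regions each. Their sums could still rest largely on 2 regions. The 2 highest scores were 427.6 and 284.2 of 922.5 in Elmsan1 and 392 and 236.5 of 957.4 in Pim1. In Irf4 they were 94.5 and 90.7 of 859.6.

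Irf4, a transcription factor that B cells need for class switching and plasma cell formation, had 38 regions over 98.2% of its window, 16 positive and 3 negative. Its 3 highest scores, 94.5, 90.7 and 85, were positive and stood 81.5, 601.5 and 2396.5 nt from the end. Zfp36l1, an RNA-binding protein that triggers decay of messages with AU-rich elements, had 37 regions that together covered 100% of its window, 13 positive and 5 negative, and its 3 highest (171.9, 129.5 and 91) were positive too. In Cltc, the clathrin heavy chain, and in Wasl, an activator of actin polymerization, the highest score was negative (269.2 and 201) and the following ones positive. Slc38a2, an amino acid transporter, had 15 positive and 9 negative regions of 50. Positive and negative regions thus lay side by side on the same messages.

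Among regions of at least 20 nt with a score of at least 5, the largest positive differences were in Tnfrsf26, Tial1, Tgif2, Bod1, Tnfrsf26 again and Ppp1r16b. Tnfrsf26, which belongs to the tumour necrosis factor receptors, had 0.80 over 310 nt (chr7:143607865-143608174) and 0.61 over 570 nt (chr7:143608340-143608909). Tial1, an RNA-binding protein of stress granules, had 0.74 (chr7:128442375-128442414) and Tgif2, a repressor in TGF-beta signalling, 0.66 (chr2:156855395-156855484). The largest negative differences were in Elmsan1 (-0.73), Aars (-0.68), Birc2 (-0.63), Tcn2 (-0.61), Trak2 (-0.60) and Eif2b1 (-0.59). Aars is the alanyl-tRNA synthetase, Birc2 an inhibitor of apoptosis and ubiquitin ligase of the CD40 pathway, and Eif2b1 a subunit of the translation factor eIF2B. The positive extremes were 40 to 570 nt wide and the negative ones 35 to 50 nt. These 12 extremes had low scores, 6.7 to 41.8, far under those of the leading regions.

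Opposite states also occurred within 1 run of Ago2 signal. Of the 34126 clusters 20.7% held regions of both signs, 8.13% positive but no negative ones, 44.4% negative but no positive ones and 26.8% none in a differential state. Only regions near 3′ ends were counted, and the 31.3% of clusters with a single such region cannot hold both signs. The last 250 nt of the window had a positive share of 17.7% and the stretch from 2750 to 3000 nt one of 13.3%, while either state held 44.4% and 42.7%.

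Averaging the difference over all covered bins gave a value per gene, for the 5289 genes with at least 500 nt covered, a limit set after the values were seen. The median was -0.032 (5th to 95th percentile, -0.10 to 0.051), with 1264 genes above 0 and 4025 below. Tnfrsf26 was highest at 0.33, followed by Slc4a7 (0.31), Trp53inp1 (0.22), AW549877 (0.20) and Ccl22 (0.20). Ccl22 is a chemokine that activated B cells release to attract T cells, and Trp53inp1 a stress protein induced by p53. In Slc4a7, a bicarbonate transporter, 8 of 17 regions were positive and 1 negative. Most genes thus lay slightly below 0, and those far above it were few. A median below 0 was not particular to 3′ ends. Over single regions the median difference was -0.024 near 3′ ends, -0.034 elsewhere in single coding genes and -0.037 in all regions.

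Many of the most negative genes in this order were histone genes. Of 59 histone genes with regions near the 3′ end 24 had at least 500 nt covered, and all 24 were below 0, with a median of -0.16 (range -0.32 to -0.028); the highest lay above the median of all ranked genes, and the other 35 histone genes were not ranked. They were 14 of the 50 most negative genes and 6 of the 8 most negative. Hist1h3g was lowest at -0.32 and Hist1h4i next at -0.24. Replication-dependent histone messages are made in S phase and end in a stem-loop without a poly(A) tail. Their genes are short, so the window holds the whole message, and near-identical copies make the division of signal between them uncertain. The grouping by name was made after the values were seen.

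Known targets of miR-221 and miR-222 were covered by Ago2 over much of their 3′ ends. Of 24 genes listed from the literature 20 had regions there, 534 in all, and the 4 without were Cdkn1c, Kit, Timp3 and Hectd2. Among 21665 non-mitochondrial coding genes 8905 did, and 92.0% of those at mean normalized counts of 1000 to 10000. The median listed gene with regions had 78.4% of its window covered, against 24.2% for all 8905 genes, and 2134 nt in all, the 88.2th percentile. The medians were 75.9% for targets of other B cell miRNAs and 76.7% for mRNA decay regulators. Covered length went with RNA level, with a median of 948 nt at mean normalized counts of 1000 to 10000. The part of RNA level in these medians was not tested. Of the 482 regions of at least 20 nt in the listed genes, 24.7% were positive and 25.5% negative, against 16.4% and 30.1% of all 112734 regions of that width near 3′ ends, and 9.86% and 33.9% of all regions of that width. The share in either state was 50.2%, against 46.6% of all near 3′ ends and 43.7% of all regions.

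Cdkn1b encodes p27, an inhibitor of cyclin-dependent kinases and a classic target of this miRNA pair. It ranked 3rd of 8905 genes by summed score, with 930 from 49 regions, and Ago2 covered 99.2% of its window. Its highest-scoring region, 1131 nt from the end (chr6:134924360-134924404, 416.4), was negative at -0.23. The next stood 181 nt from the end (chr6:134925300-134925364, 142.1) and was positive at 0.28, as was the third (chr6:134924250-134924319, 83.7) at 0.27. Of its regions 14 were positive, 9 negative and 26 neither. Its RNA was 3775, 2713, 4223 and 3827 normalized counts in KO libraries 1 to 4 and 3251, 3527, 4186 and 4329 in Flox libraries 1 to 4, groups that overlapped.

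Bcl2l11 encodes the pro-apoptotic protein Bim and ranked 53rd with 535 from 38 regions, 12 positive, 7 negative and 19 neither. Its 3 highest-scoring regions were all positive and wide. They stood 1210 nt (chr2:128161245-128161429, 132.6), 125 nt (chr2:128162315-128162529, 98.8) and 1422.5 nt (chr2:128161040-128161209, 75.5) from the end, with differences of 0.34, 0.37 and 0.35. Cdkn1b, by contrast, had its strongest region in the negative state. Bcl2l11 RNA was 8255, 7561, 7593 and 8302 normalized counts in KO libraries and 6897, 8247, 7624 and 8424 in Flox libraries, again overlapping.

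Ets1, a transcription factor that restrains plasma cell formation, and Tnfaip3, the NF-kB inhibitor A20, came next in that list. Ets1 had 391.4 from 42 regions, 15 positive and 5 negative, with its highest score (77.9, difference 0.25) 40.5 nt from the end at chr9:32757765-32757794. Tnfaip3 had 333.1 from 28 regions, 9 positive and 4 negative, with its highest score (75.1, difference 0.25) 52 nt from the end at chr10:19000940-19000984. Ddit4, an inhibitor of mTORC1, is so short that all 34 of its regions lay in the window, 7 positive and 9 negative, and its 3 highest scores were positive, led by 70.8 at 0.37 (chr10:59950190-59950329).

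Arid1a and Foxp1 are known as the targets that the study followed. Arid1a, the DNA-binding subunit of the BAF chromatin remodelling complex, had 41 of its 655 regions near the 3′ end, over 96.6% of the window, 11 positive, 9 negative and 21 neither (summed score 311.7, rank 217). Its highest-scoring region, 591.5 nt from the end (chr4:133679585-133679614, 45.4), was negative at -0.25, and the next, 96.5 nt from the end (chr4:133679010-133679199, 36.5), positive at 0.33. Foxp1, a forkhead transcription factor of B cell development, spans 597384 nt and had 45 of its 1610 regions there, over 93.4% of the window, 9 positive, 12 negative and 24 neither (142, rank 852). Its highest score, 20 at 981.5 nt from the end (chr6:98926295-98926344), was positive at 0.28, as was the next, 10.6 at 2544 nt. Both windows were almost fully covered and of mixed sign, and scores were lower in Foxp1.

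Both genes had more RNA in every KO library than in any Flox library. How many of all tested genes did so was not counted, and 1981 of 13091 reached an unadjusted limma p under 0.05. Other named genes that did not pass the threshold did so too, among them Arid2, Mef2c, Gsk3b and Wee1. The lack of overlap thus does not set Arid1a and Foxp1 apart. Arid1a was at 8489, 6423, 7646 and 6276 normalized counts in KO libraries and 5772, 5670, 4475 and 4785 in Flox libraries, a log2 fold change of 0.48 (SE 0.12). Foxp1 was at 2652, 1900, 3113 and 2488 in KO libraries and 1640, 1722, 1799 and 1861 in Flox libraries, and its log2 fold change was 0.51 (SE 0.13). Neither passed the threshold (limma adjusted p = 0.238 and 0.239). DESeq2 on the recovered reads put Arid1a and Foxp1, and Ddit4 in the lower direction, past it. Fewer cells of a type and less RNA per cell cannot be told apart in such bulk samples.

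**Figure D3:**
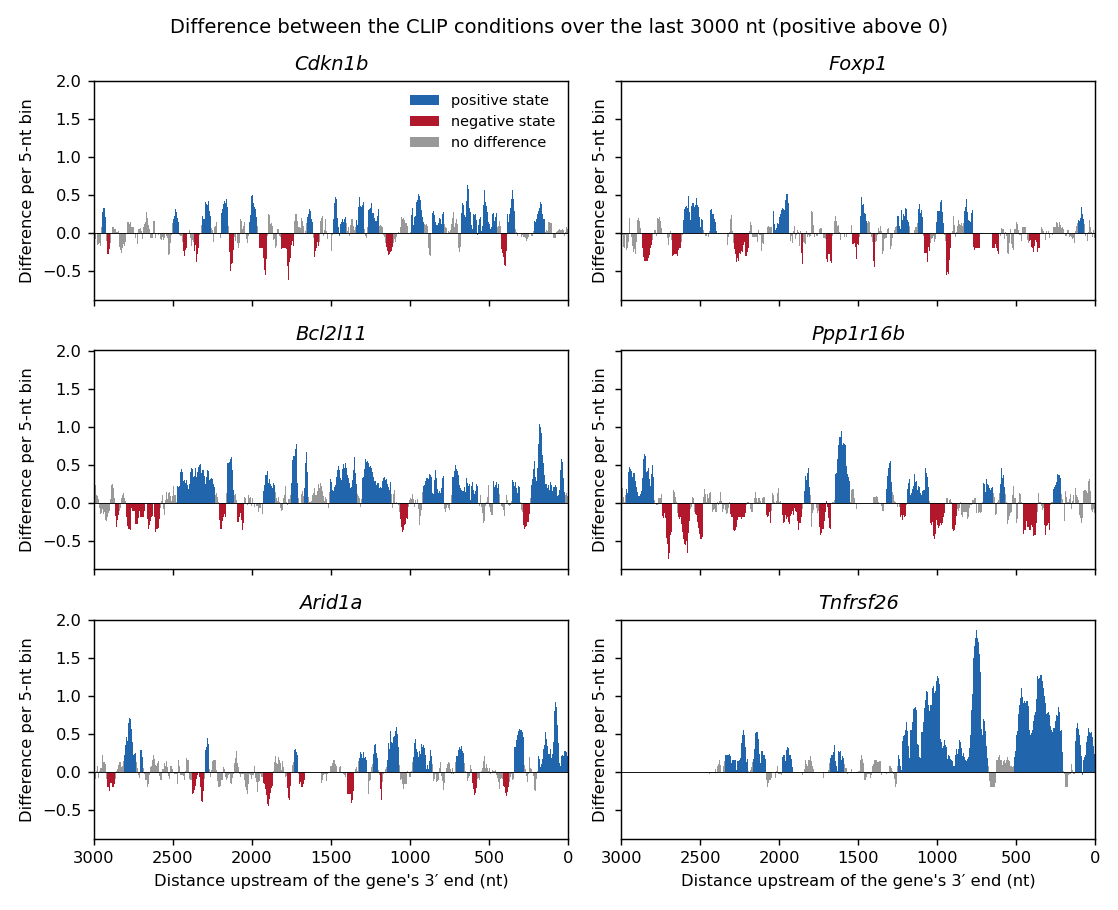
Authors' difference value per 5-nt bin (its scale is not given) against distance in nt upstream of the 3′ end for Cdkn1b, Bcl2l11, Arid1a, Foxp1, Ppp1r16b and Tnfrsf26; blue marks the positive state, red the negative state and grey no difference, and gaps had no Ago2 region. Tnfrsf26 has 7 positive and 0 negative regions, with means of up to 0.80, while the other 5 genes alternate between the states.

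Transcription factors of the B lineage were covered most of the 12 lists but for the pair of Arid1a and Foxp1. Of 30 factors 28 had regions near the 3′ end, where 8905 of 21665 non-mitochondrial coding genes did. Among coding genes at mean normalized counts of 1000 to 10000 the share with regions was 92.0%. The part of RNA level in the values of this list was not tested. The median factor with regions had 92.0% of its window covered, and the factors without were Irf8 and Mef2b. Of the 857 regions of at least 20 nt in the 28 factors, 25.2% were positive and 26.1% negative, against 16.4% and 30.1% of all such regions near 3′ ends. Pou2af1, the B cell coactivator OBF-1, had 603.1 from 40 regions, and its 3 highest scores (101, 90.3 and 82.5) were positive and within 493 nt of the end. Mef2c, a factor downstream of the B cell receptor, had 52 of its 1993 regions there, 15 positive and 11 negative, and its first region (50.4) was positive at 0.26 (chr13:83666030-83666094).

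Targets of other B cell miRNAs were also widely covered. All 32 literature targets of miR-155, miR-17-92, let-7, miR-150, miR-181 and miR-125 had regions, with a median of 75.9% of the window covered. Among coding genes at mean normalized counts of 1000 to 10000 the share with regions was 92.0%. Of the 823 regions of at least 20 nt in these targets, 22.0% were positive and 27.6% negative, against 16.4% and 30.1% of all such regions near 3′ ends. Jarid2, a cofactor of Polycomb repressive complex 2 and a known miR-155 target, had 21 of its 1083 regions there and its 3 highest (100.2, 71.9 and 70.6) were positive, the first at 0.41 (chr13:44919950-44920029). Myb, a transcription factor and miR-150 target, had 6 positive and 12 negative regions of 38, led by a positive one of 82.3 at 0.38 (chr10:21125275-21125324).

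Most genes of the miRNA machinery had Ago2 regions, as did most expressed coding genes. Of 20 genes 18 had regions, with a median of 50.1% of the window covered, and Drosha and Lin28b had none. Among coding genes at mean normalized counts of 1000 to 10000 the share with regions was 92.0%. Ago2's own message was covered over 100% of the window by 34 regions, 10 positive and 7 negative, and its 3 highest scores (88.6, 61.1 and 60.5) were positive; the widest of them, 335 nt, stood 178 nt from the end at 0.29 (chr15:73095855-73096189). Tnrc6a and Tnrc6b, scaffolds between Ago proteins and deadenylases, had 46 and 40 regions. The highest score of Tnrc6a was negative (62.6 at -0.28, chr7:123194230-123194269) and that of Tnrc6b positive (71.5 at 0.33, chr15:80940680-80940744). Ago2 RNA was 6686, 5279, 7357 and 5648 normalized counts in KO libraries and 4687, 5090, 4461 and 4779 in Flox libraries, and did not pass the threshold (log2 fold change 0.38, limma adjusted p = 0.239).

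The lists of cell death genes and of mRNA decay regulators had the highest positive shares of the lists of 14 or more genes. Of regions of at least 20 nt, 27.7% were positive and 21.6% negative in the 16 cell death and survival genes with regions, and 26.6% and 20.3% in 14 decay regulators, against 16.4% and 30.1% of all such regions near 3′ ends. Pmaip1, the pro-apoptotic protein Noxa, had 14 positive and 2 negative regions of 35, with its highest score (158 at 0.25) 38 nt from the end. Mcl1, an anti-apoptotic protein, ranked 12th with 715.7 from 44 regions, 16 positive and 6 negative, and Xiap, a caspase inhibitor, had 17 and 11 of 56. Zfp36, which encodes tristetraprolin, had positive regions of 180.7 and 126.1 at 63 and 220.5 nt from the end (chr7:28376835-28376859 and chr7:28376890-28377119). Pmaip1 RNA was 2095, 1642, 2576 and 2485 normalized counts in KO libraries and 2748, 3097, 3405 and 3069 in Flox libraries, lower in KO and not past the threshold (log2 fold change -0.50, limma adjusted p = 0.239).

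Cell cycle and class switch genes had the lowest positive shares of the 12 lists, on either side of the share of all regions near 3′ ends. In 18 cell cycle genes with regions 17.4% of the 447 regions of at least 20 nt were positive and 32.4% negative. Of all regions of that width near 3′ ends 16.4% were positive and 30.1% negative. Myc had 3 positive and 8 negative regions of 24, and its 3 highest scores were negative, led by 101.3 at -0.26 (chr15:61989970-61990084). Wee1, a kinase that holds cells before mitosis, had its highest score, 189.8, in a positive region (chr7:110142840-110142874) and the next, 111.7, in a negative one (chr7:110143030-110143119). Ccnd2, cyclin D2, had 15 positive and 7 negative regions of 43. The 18 class switch genes with regions had 14.6% positive and 34.3% negative, and the lowest share of window covered of the 12 lists, a median of 12.7%. Rnf168, a ubiquitin ligase of the DNA break response, had 7 positive and 17 negative regions of 46, led by a negative one of 99 at -0.28 (chr16:32299685-32299744), and Msh6, a mismatch repair protein, 2 and 10 of 28.

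Of the remaining lists, the BAF complex had regions in 23 of 24 genes (median 37.0% of the window covered), the PI3K, FOXO and mTOR genes in 24 of 24 (43.8%) and the CD40 and NF-kB genes in 21 of 21 (44.0%). Regions lay in 92.0% of coding genes at mean normalized counts of 1000 to 10000, and the part of RNA level in the list values was not tested. In Arid2, a BAF subunit, the 3 highest scores were all positive (differences 0.39, 0.32 and 0.29) and lay 2110 to 2440 nt from the end. Rictor, the defining subunit of mTORC2, had 12 positive and 8 negative regions of 42, led by 119.3 at 0.27 (chr15:6800190-6800259). Rel, the NF-kB subunit c-Rel, had 12 positive and 7 negative regions of 37, and its first (85.4) was positive at 0.29 over 370 nt (chr11:23736845-23737214). Across the 12 lists the share of regions of at least 20 nt in either state was between 44.97% and 52.1%, and the positive share between 14.6% and 27.7%, so the lists differed more in sign than in how often a difference was called.

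**Figure D4:**
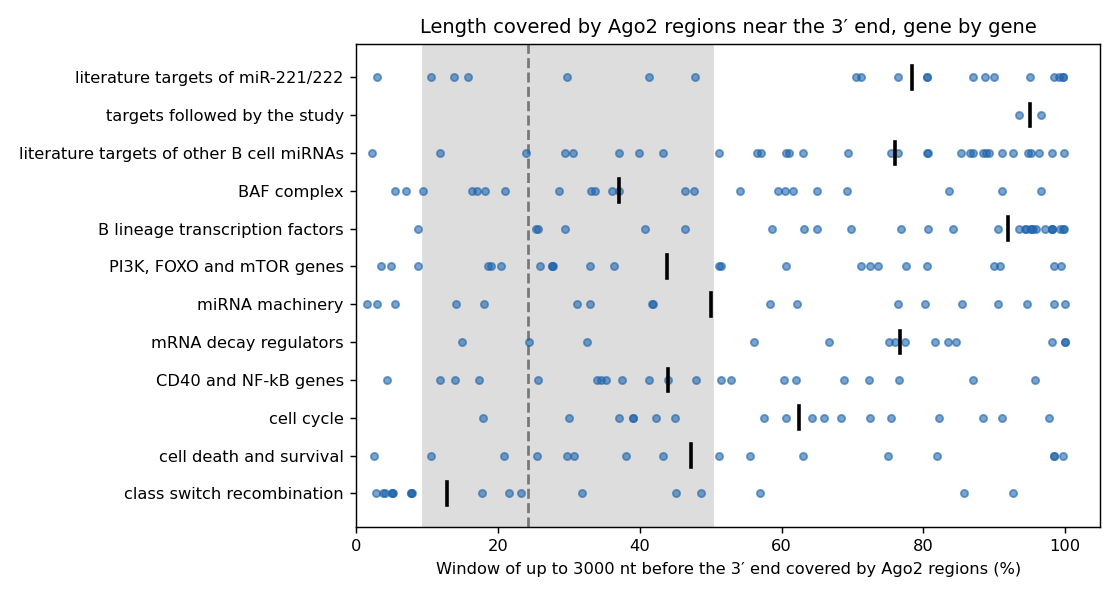
Share (%) of the window of up to 3000 nt before the 3′ end that Ago2 regions covered, for each gene with regions in the 12 lists; points are genes, black bars list medians, the dashed line the median of all 8905 genes (24.2%) and the grey band their quartiles (9.33% and 50.3%). The class switch list (12.7%) has its median below the dashed line, and the other 11 lists have theirs above it. The part of RNA level in these shares was not tested.

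RNA-seq compared KO with Flox cells across all genes. Of the 8417 tested genes with Ago2 regions near the 3′ end, 4 passed the threshold, 2 higher and 2 lower in KO (limma-trend, Benjamini-Hochberg adjusted p under 0.05). The share of all 13091 tested genes that passed was 0.0687%, with 0.0535% higher and 0.0153% lower in KO. An unadjusted p under 0.05 was reached by 1402 genes with regions and 1981 genes in all. With DESeq2 on the recovered reads 141 genes with regions passed (1.68%), where 1.52% of all genes did. None of the 12 lists held a gene that passed by limma.

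The median log2 fold change was 0.0051 in genes with regions, -0.044 in genes without and -0.0078 in all. In the upper quartile of covered length it was 0.065 and in the lowest -0.046. The median over genes with regions had an SD of 0.018 over the KO libraries; the medians of the quartiles were not tested. Among the lists the medians were 0.030 for the literature targets of miR-221 and miR-222, 0.079 for the targets of other B cell miRNAs, 0.21 each for the BAF complex, the B lineage factors and the miRNA machinery, and -0.14 for cell death and survival.

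The 4 genes that passed differed widely in Ago2 signal. Tnfrsf26 RNA was 429, 356, 469 and 324 normalized counts in KO libraries and 1309, 1670, 1526 and 1656 in Flox libraries; the log2 fold change was -1.97 (SE 0.13) with a limma adjusted p of 3.86e-05. Its 18 regions covered 76.5% of the window, 7 positive, 0 negative and 11 neither. Ppp1r16b, a regulatory subunit of protein phosphatase 1, was at 9839, 9496, 12474 and 10050 in KO libraries and 4875, 4684, 5003 and 5019 in Flox libraries; its log2 fold change was 1.09 (SE 0.09) with a limma adjusted p of 0.000373. Its 43 regions covered 96.3% of the window with mixed sign, 8 positive and 12 negative. The highest score (57.7) was positive at 0.27, 242 nt from the end, the next (46.1) negative at -0.29, 997 nt from it, and the third (41.8) positive at 0.61 (chr2:158764685-158764784).

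Gdpd3 and Tspan32 had little Ago2 signal. Gdpd3, a lysophospholipase D, was at 1661, 812, 1449 and 1104 normalized counts in KO libraries and 17.3, 29.7, 31.3 and 20.7 in Flox libraries; its log2 fold change was 5.60 (SE 0.25) with a limma adjusted p of 1.78e-06. It had 2 regions with scores of 4.6 and 2, both negative (chr7:126774060-126774089 at -0.35), over 4.67% of the window. The tetraspanin Tspan32 was at 868, 884, 794 and 966 in KO libraries and 1434, 1566, 1658 and 1567 in Flox libraries; its log2 fold change was -0.83 (SE 0.09) with a limma adjusted p of 0.00283. It had 7 regions over 18.8% of the window, 1 positive, 1 negative and 5 neither. The groups did not overlap in any of the 4 genes, which were picked by these same RNA-seq values. CLIP signal follows the amount of RNA as well as binding, and the part of RNA level in these differences was not tested.

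**Figure D5:**
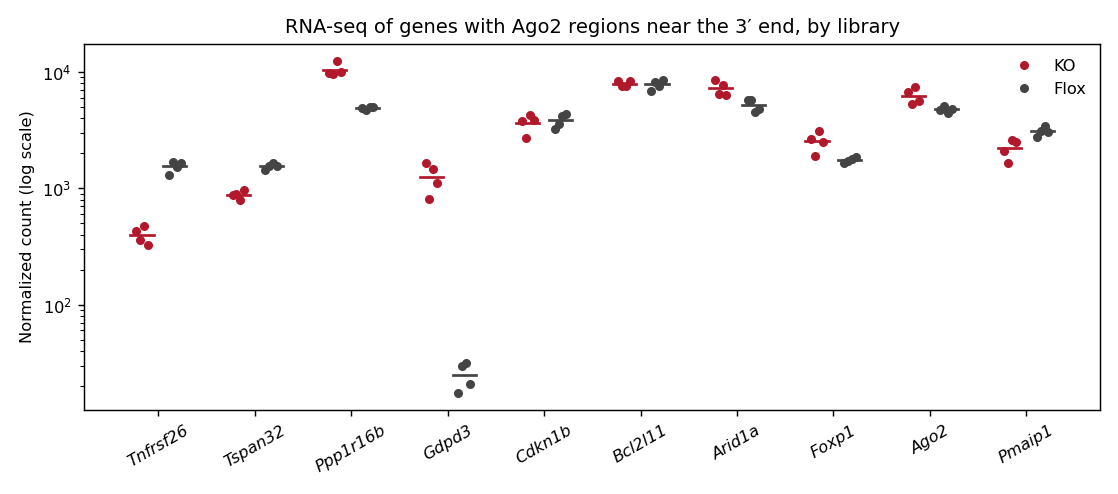
Normalized RNA-seq counts (log scale) by library for 10 genes with Ago2 regions near the 3′ end; points are libraries, KO in red left of Flox in grey, and bars the means of 4. Groups do not overlap for Tnfrsf26, Tspan32, Ppp1r16b, Gdpd3, Arid1a, Foxp1, Ago2 and Pmaip1, and overlap for Cdkn1b and Bcl2l11. The 10 genes were picked, and the share of all tested genes without overlap was not counted.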

How the data were processed

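The deposited CLIP table (dCLIP) holds, per 5-nt bin, a difference value and hidden state by the authors; the authors' summary adds a score per region. Its 4 columns of tags and mutations per condition could not be matched to a genotype and were not used; earlier steps had read them, summed over the conditions. The score takes their place, and the depth under each region is not given. Bins were joined into 962700 regions, all matching the summary. Positions are printed as deposited. The submitters' processing notes name cutadapt, Bowtie2, SAMtools, STAR, DESeq2, DESeq and the build mm9; the positions are those of GRCm38: 99.96% of 8534 gene spans matched by symbol overlapped the RefSeq GRCm38.p6 span, and 80.0% of 3′ ends lay within 100 nt. Other 3′ ends of a gene were not considered. Intervals given for shares of regions are exact (Clopper-Pearson) 95% intervals.

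The deposited RNA-seq table holds a signal, gene counts that the authors divided by a size factor per library, per the file headers; it also gives the authors' log2 fold changes, ratio, p-values and percent GC, not used here. Whole reads were recovered (100% of values under 300 reads whole within 0.1). Genes with a mean of at least 10 were tested with limma-trend (limma 3.58.1) on log2(value + 1), KO minus Flox, two-sided, Benjamini-Hochberg threshold 0.05; the fold changes understate those of low genes. The RNA-seq steps were tested on simulated counts. Nothing states that replicates came from separate mice, so the tests may cover technical spread alone. Replicate numbers were not used as pairs in the main fit. Correlations between same-numbered libraries were -0.094 to 0.0027, which cannot show whether samples were paired. Alternatives were edgeR 4.0.16, DESeq2 1.42.0, TMM scaling, other filters and pseudocounts, a replicate block, leaving out libraries, other windows, widths and score limits, and, chosen after seeing the data, leaving out KO 1 and 3 together, genes of at least 20000 nt and leaving out Lars2.

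The regions, the 12 gene lists and the tests were chosen with earlier results of these data known. Named regions are the 10 with the highest score and, of those with at least 20 nt and a score of at least 5, the 6 largest differences of each sign; named genes are the 10 with the highest summed score, up to 4 of each list, those past the RNA-seq threshold, and Foxp1 and Arid1a. Genes named by the mean difference per gene, the histone genes and the highly expressed genes without regions were chosen after their values were seen. Some genes that this rule picks are not reported here.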

Additional observations from a re-analysis of the deposited data

Results flagged for a closer look

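Of 102 groups of 4 libraries examined for the RNA-seq counts of the named genes, 5 had a library far from the others, where chance alone flags about 1 in 20 groups. Mef2c was at 54333.6 normalized counts in KO library 3, while the other KO libraries lay between 42085 and 43222. Cltc was at 22146 in KO library 3, with the others between 17157.9 and 17258.1. Wee1 was at 900.5 in KO library 1, with the other KO libraries between 814.8 and 822.9, and at 797.2 in Flox library 1, with the other Flox libraries between 720.7 and 730.6. Msh6 was at 6970 in Flox library 1, with the others between 6004.8 and 6160.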

How the results depend on the processing

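The number of regions near 3′ ends was 59008 with a window of 1000 nt, 25296 with a score of at least 5 and 75913 in genes of at least 20000 nt. In these 3 settings the median distance was 415, 929 and 1100 nt, and it was 1508 nt with a window of 5000 nt. The median width was 55 nt with a width limit of 20 nt and 40 nt with the score limit. The share with a difference was 44.7% (window 1000 nt), 44.0% (5000 nt), 46.6% (width) and 44.6% (long genes), and with other call rules 21.6% (mean difference of at least 0.25), 0.109% (0.5) and 14.3% (score of at least 5 and 0.25); with the score limit alone all regions left are in a differential state, so no share is given. The limit of 10 tags was not run, because tags were not used. Of the 10 leading genes 5 remained with a window of 1000 nt, 4 with 5000 nt, 4 in long genes and 9 without Lars2. RNA-seq calls were 3 in all genes with the stricter filter and 199 with DESeq2, and 141 with DESeq2 in genes with regions. Leaving out 1 library gave 8 to 17 calls in all genes and 4 to 8 in genes with regions, the most without KO 2 (17 and 8) and KO 4 (14 and 7). All 4 genes with regions were called in every setting but the stricter filter, which called 3. The replicate block, with correlations between same-numbered libraries of -0.094 to 0.0027, gave 11 and 6 calls. With 1 library left out, the log2 fold change of Cdkn1b was between -0.16 and 0.052, above 0 without KO 2, and that of Bcl2l11 between -0.031 and 0.065, below 0 without Flox 1; neither was called. Foxp1 passed the threshold without KO 2 (0.64). The causes were not tested. Pooled CLIP libraries limit every CLIP value to counting error.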
